A study of Mus musculus with 14 samples.

Results

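The genes described here are the olfactory receptors (symbols starting with Olfr) and trace amine receptors (symbols starting with Taar) whose microarray probes gave a signal in mouse lung. A gene was counted as detected where a probe of it carried the scanner software's flag for signal well above background on at least 3 of 14 arrays, without regard to group. Of 890 receptor genes with a probe that could be named (886 Olfr and 4 Taar), 268 were detected: 265 Olfr genes and the 3 trace amine receptors Taar2, Taar4 and Taar9. They were measured by 272 of the 930 receptor probes. The genes were chosen by these detection flags, so their being above background is a description and no finding.

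The lungs came from male C57BL/6N mice 6 months after 200 µg of carbon fibre per mouse, or the vehicle alone, had been instilled into the trachea. The fibre was taken before recycling (VCF, 4 arrays), after its carbonization (CCF, 3 arrays) or after its firing (RCF, 4 arrays), and the control mice had been given phosphate-buffered saline (Ctrl, 3 arrays). Each array was hybridized with Cy3-labelled RNA of 1 lung, and the design text calls the samples biologically independent. The question put to the receptors was whether their signal differed between the lungs of fibre-exposed and saline-treated mice, or between fibres.

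Olfactory receptors are G protein-coupled receptors and form the largest gene family of the mouse. In the nose each sensory neuron expresses a single one of them, and odorant binding raises cyclic AMP through the G protein subunit Gnal and the adenylyl cyclase Adcy3, which opens a cation channel that contains Cnga2. Trace amine receptors are a small second family in the same epithelium, tuned to volatile amines. A few olfactory receptors have described roles outside the nose, such as chemosensing in the carotid body, the kidney, the liver and airway cells.

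Levels are given as log2 of the processed intensity minus log2 of the array's 75th percentile, so that 0 is the 75th percentile of that array and more negative values are dimmer. Nothing is read from the level of one probe against that of another. The 75th percentile itself ran between 724.7 and 1345.6 intensity units, and 63.1% to 70.5% of 41174 probes were well above background on an array. The arrays lay on 4 slides, each of which held at most 1 array of a group. Slide 4 held VCF replicate 1, CCF replicate 2 and RCF replicate 2 and no Ctrl array. 4 arrays (VCF replicate 1, CCF replicates 2 and 3, RCF replicate 1) were high in transcripts of liver, thymus or adipose tissue, and differences of receptors that rest on them are also given without them, which leaves 1 CCF array whose spread is taken from the other groups. All 6 genes of a lung marker list were well above background on all 14 arrays. In whole lung, fewer cells of a type and less RNA per cell cannot be told apart.

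Most receptor probes were dark, and the detected ones fell into a steady set and a set near the detection limit. 560 of the 930 probes were well above background on 0 arrays, 67 on 1 and 31 on 2. Among the 272 that were kept, 92 probes (91 genes) were above background on all 14 arrays, 70 on 10 to 13 arrays and 110 on 3 to 9 arrays. Around the minimum, the 13 probes detected on exactly 3 arrays had mean levels with a median of -7.18, and the 31 probes detected on exactly 2 arrays had a median of -7.42. Of the 3808 single values behind the 272 probes, 72.4% were well above background. A further 85 values (2.23%) were not significantly above 0, so the software had replaced them by an error estimate, and these have no order among themselves.

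**Figure D1:**
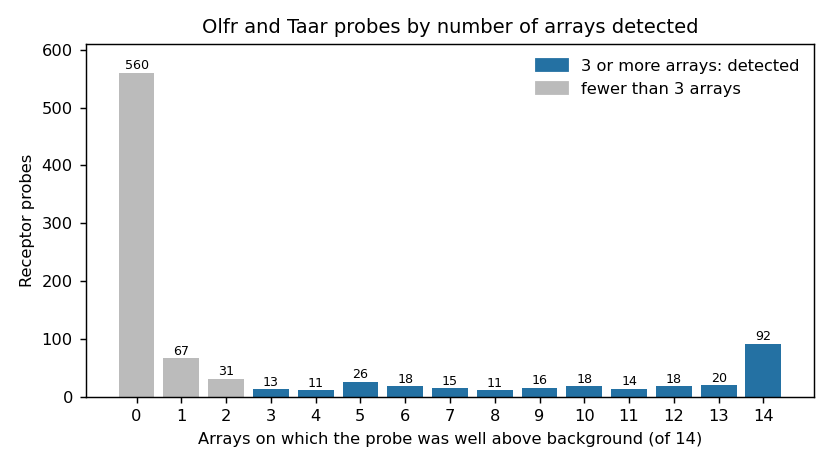
Number of olfactory and trace amine receptor probes (vertical axis) by the number of arrays, of 14, on which they were well above background (horizontal axis). Grey bars are the probes under the minimum of 3 arrays, with 560 probes at 0 arrays, and blue bars the 272 detected probes, of which 92 stand at 14 arrays.

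The receptor family was detected much less often than other genes, at a share within the range of other chemosensory families. 30.1% of its genes were detected, against 87.7% of 16145 named genes outside the chemoreceptor families. Among vomeronasal receptors, which detect pheromones, 27 of 105 type 1 genes (25.7%) and 10 of 22 type 2 genes (45.5%) were detected. Among taste receptors these were 3 of 13 bitter receptors and 2 of 3 sweet and umami receptors. 36 receptor genes had several probes, 16 of them had at least 1 detected probe, and in only 4 of these (Olfr166, Olfr456, Olfr1359 and Olfr1393) were all probes detected. For Olfr175, 1 probe was above background on all 14 arrays and the other on 0. Signal from near-identical receptors or from transcripts of a neighbouring gene was not tested.

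How many receptors were seen on an array moved with the slide, and on each slide with a CCF array that array had the fewest. The number of the 272 probes above background was 224 to 253 on the 3 arrays of slide 2 and 176 to 245 on the 4 arrays of slide 3. It was 147 to 170 on the 4 arrays of slide 1 and 154 to 195 on the 3 arrays of slide 4. By group the ranges were 169 to 230 on VCF arrays, 147 to 176 on CCF arrays, 157 to 253 on RCF arrays and 170 to 246 on Ctrl arrays. The ranges of VCF, RCF and Ctrl overlapped widely, and CCF, with no array on slide 2, had the lowest top value. The 75th percentile of the signal moved with these numbers, and its part in them was not tested.

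**Figure D2:**
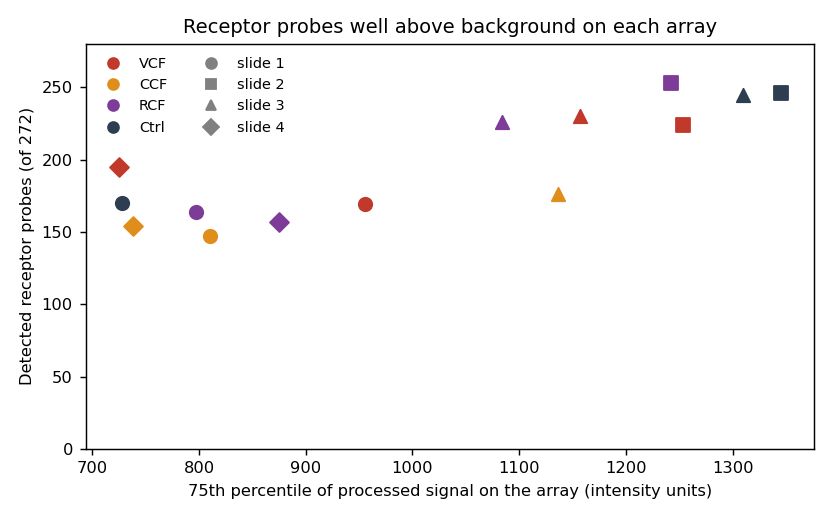
Number of the 272 detected receptor probes that were well above background on each array (vertical axis) against the array's 75th percentile of processed signal in intensity units (horizontal axis). Colours are groups and symbols are slides: arrays of slides 1 and 4 lie between 147 and 195 probes, and those of slides 2 and 3 between 176 and 253.

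Between groups, 1 receptor passed in comparisons of fibre with Ctrl lungs, while 0 of the 272 probes passed an F test over the 4 groups. Olfr1495, an olfactory receptor gene of chromosome 19, was brighter in VCF lungs than in Ctrl lungs, and in the 3 fibre groups as a whole. 4 receptors (Olfr1495, Taar4, Olfr1255 and Olfr1097) had all 11 fibre arrays above all 3 Ctrl arrays. They are 1.47% of the 272 probes, where 0.41% of all 29269 tested probes had their arrays apart in that direction. All 4 were above background on 10 or 11 of the 11 fibre arrays and would have been kept through these arrays alone, so this count is a description. Probes with all fibre arrays below all Ctrl arrays numbered 0 among the receptors (0.321% of all probes).

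The sequences shown here, around the annotated starts of 3 of these 4 receptors, place them in the genome. They are from RefSeq on GRCm38.p6, cover 250 bases before and 50 after the annotated start, and are written 5′ to 3′ on the gene's strand. Capitals mark the letters TAATTA, the core bound by homeodomain proteins such as Lhx2, which takes part in receptor choice in the nose. The window of Olfr1495 lies at chr19:13768094-13768393 (plus strand), that of Olfr1255 at chr2:89816078-89816377 (plus strand) and that of Olfr1097 at chr2:86892114-86892413 (minus strand). TAATTA occurs 1 time in the windows of Olfr1255 and Olfr1097 and 0 times in that of Olfr1495. The annotated start falls on the letters ATG in the windows of Olfr1495 and Olfr1255, and not in that of Olfr1097.
Olfr1495: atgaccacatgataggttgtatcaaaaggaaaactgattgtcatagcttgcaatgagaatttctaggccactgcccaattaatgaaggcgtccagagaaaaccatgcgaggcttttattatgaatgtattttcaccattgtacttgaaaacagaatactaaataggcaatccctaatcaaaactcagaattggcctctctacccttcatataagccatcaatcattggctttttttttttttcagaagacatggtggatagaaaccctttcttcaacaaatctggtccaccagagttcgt
Olfr1255: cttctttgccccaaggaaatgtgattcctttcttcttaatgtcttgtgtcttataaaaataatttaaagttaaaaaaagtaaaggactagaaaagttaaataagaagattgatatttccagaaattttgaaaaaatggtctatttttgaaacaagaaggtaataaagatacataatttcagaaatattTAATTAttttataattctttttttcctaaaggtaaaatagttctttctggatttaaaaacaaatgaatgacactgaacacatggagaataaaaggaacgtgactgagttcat
Olfr1097: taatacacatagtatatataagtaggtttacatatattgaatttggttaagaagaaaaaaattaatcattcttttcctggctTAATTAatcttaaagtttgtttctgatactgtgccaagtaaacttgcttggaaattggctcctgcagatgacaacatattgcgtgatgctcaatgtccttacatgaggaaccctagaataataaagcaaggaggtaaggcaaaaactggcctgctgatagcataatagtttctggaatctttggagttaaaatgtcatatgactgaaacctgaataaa

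For Olfr1495 the log2 levels were -4.03, -4.53, -3.72 and -4.13 in VCF lungs and -4.05, -4.21 and -4.97 in CCF lungs. They were -4.88, -4.35, -5.18 and -5.35 in RCF lungs and -6.30, -6.79 and -6.78 in Ctrl lungs. The lowest fibre array lay 0.95 above the highest Ctrl array, a wider gap than at any other of the 120 probes whose fibre arrays all lay above the Ctrl arrays. The probe was well above background on all 4 VCF, all 3 CCF and all 4 RCF arrays and on 1 of 3 Ctrl arrays. Means were -4.10 ± 0.34 in VCF (SD, n = 4), -4.41 ± 0.49 in CCF (n = 3), -4.94 ± 0.44 in RCF (n = 4) and -6.62 ± 0.28 in Ctrl (n = 3).

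In limma's moderated test with Benjamini-Hochberg adjustment over all 29269 probes, VCF minus Ctrl of Olfr1495 was 2.52 (SE 0.28), a 5.73-fold higher signal with adjusted p = 0.0277, where 1 of the 3 Ctrl values behind it was above background. It was 1 of 3 probes that rose in VCF lungs (0.0102% of those tested). For the fibre groups together the difference from Ctrl was 2.14 (SE 0.24), 4.40-fold, with adjusted p = 0.0297, and Olfr1495 was the only probe of the array that passed (0.00342%). Olfr1495 did not pass against Ctrl in CCF (difference 2.22, SE 0.30, limma adjusted p = 0.217) or in RCF (1.68, SE 0.28, limma adjusted p = 0.185). RCF minus VCF was -0.84 (SE 0.26, limma adjusted p = 0.746), so the fibres were not shown to differ from each other. Within slides, VCF minus Ctrl was 1.77 on slide 1, 2.66 on slide 2 and 3.06 on slide 3, with 1 array of each group on each.

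In VCF minus Ctrl and for the fibres together, the direction of Olfr1495 held in each fit, but its call did not. With slide as a block the limma adjusted p was 0.119 for VCF minus Ctrl and 0.238 for the fibres together, and without the 4 arrays high in other tissues it was 0.0902 and 0.0809. The VCF call was also lost without any 1 of Ctrl replicates 1, 2 and 3, VCF replicates 1, 3 and 4, or RCF replicates 1 and 3, with limma adjusted p between 0.0547 and 0.154. The call for the fibres together was lost without any 1 of Ctrl replicates 1, 2 and 3, VCF replicates 3 and 4, CCF replicate 2, or RCF replicates 1 and 3 (limma adjusted p between 0.0579 and 0.266). Normexp background correction lowered the difference of Olfr1495 to 0.59 in VCF minus Ctrl and turned its CCF minus Ctrl to -0.11.

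Taar4, in mouse a receptor for the predator odour 2-phenylethylamine, lies on chromosome 10. Its levels were -4.20, -4.50, -4.02 and -4.31 in VCF lungs, -4.08, -4.18 and -4.90 in CCF lungs, -4.48, -4.65, -4.31 and -5.03 in RCF lungs, and -6.04, -5.66 and -5.88 in Ctrl lungs. All fibre arrays lay above the Ctrl arrays, and CCF replicate 3 and RCF replicate 4 were the lowest of them. VCF minus Ctrl was 1.60 (SE 0.22, 3.04-fold, limma adjusted p = 0.0501), CCF minus Ctrl 1.47 (SE 0.23, limma adjusted p = 0.429) and RCF minus Ctrl 1.24 (SE 0.22, limma adjusted p = 0.186). None of these passed, and the fibres together differed from Ctrl by 1.44 (SE 0.19, limma adjusted p = 0.0674). The VCF call depended on the setting: it passed without CCF replicate 1, CCF replicate 3 or RCF replicate 4 (limma adjusted p = 0.0283, 0.0162 and 0.0498) and in the authors' deposited table (limma adjusted p = 0.0388). The fibres together passed without the same 3 arrays (limma adjusted p = 0.0397, 0.0101 and 0.0405). With slide as a block the VCF difference of Taar4 had limma adjusted p = 0.206, without the 4 arrays high in other tissues 0.0939, and without Ctrl replicate 1 it had 0.308. Normexp lowered it to 0.45 and turned CCF minus Ctrl to -0.22. Taar4 was detected on 2 of 3 Ctrl arrays and on all fibre arrays.

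Olfr1255 and Olfr1097, both olfactory receptor genes of chromosome 2, also had all fibre arrays above the Ctrl arrays, without passing. Olfr1255 read -4.47, -4.54, -3.40 and -3.95 in VCF lungs, -4.32, -5.50 and -5.44 in CCF lungs, -4.68, -5.55, -4.92 and -4.30 in RCF lungs, and -6.22, -5.85 and -6.29 in Ctrl lungs. Its VCF arrays overlapped those of CCF and RCF, and VCF minus Ctrl was 2.03 (SE 0.36, limma adjusted p = 0.152). Olfr1097 read -5.35, -5.41, -4.82 and -5.06 in VCF lungs, -5.09, -6.20 and -6.12 in CCF lungs, -5.63, -5.67, -5.18 and -5.91 in RCF lungs, and -6.48, -6.60 and -7.46 in Ctrl lungs. Its VCF minus Ctrl was 1.69 (SE 0.31, limma adjusted p = 0.152) and passed only without CCF replicate 1 (limma adjusted p = 0.0466). Without the 4 arrays high in other tissues VCF minus Ctrl was 2.16 for Olfr1255 and 1.75 for Olfr1097 (limma adjusted p = 0.203 and 0.228). It was detected on 2 of 3 CCF arrays and 1 of 3 Ctrl arrays. The 3 comparisons with Ctrl use the same 3 Ctrl arrays and are not independent of each other.

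**Figure D3:**
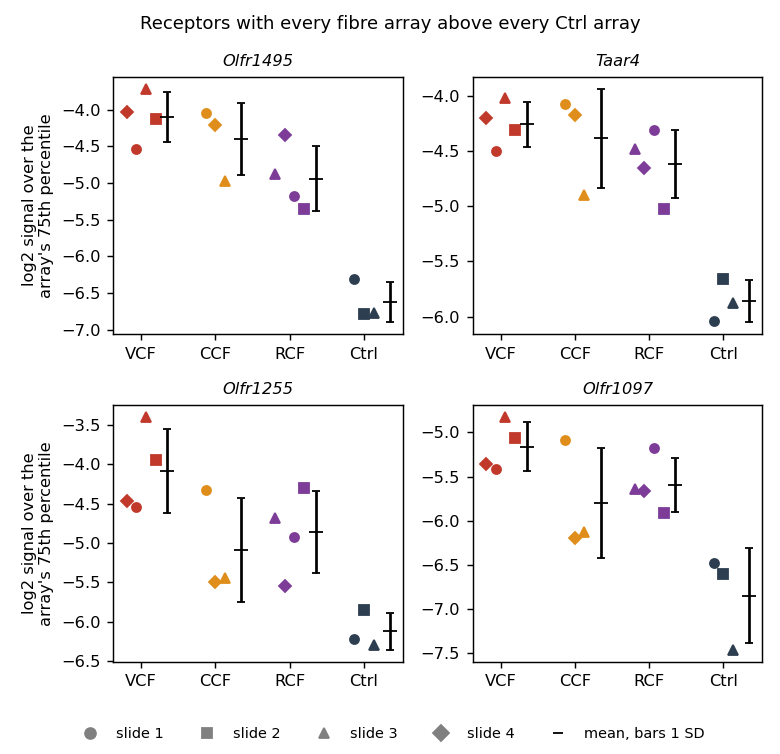
Log2 signal relative to the array's 75th percentile (vertical axis) of Olfr1495, Taar4, Olfr1255 and Olfr1097 in VCF, CCF, RCF and Ctrl lungs (horizontal axis). Each point is 1 array, its symbol the slide, and the black mark the mean with 1 SD: in each panel the 11 fibre arrays lie above the 3 Ctrl arrays, by 0.95 for Olfr1495.

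Markers of red blood cells and of heart muscle also had higher fibre means, but their arrays were not all apart. All 8 tested red blood cell genes had a fibre mean above the Ctrl mean, with a median difference of 0.70 and 0 of 8 passing in limma. The list's mean level was -0.55 to -0.10 on VCF arrays, -1.24 to 0.03 on CCF arrays, -0.72 to -0.55 on RCF arrays and -1.90 to -1.05 on Ctrl arrays, so that CCF overlapped with Ctrl. All 5 heart muscle genes were higher in each fibre group than in Ctrl (median 0.76 for the fibres together), with list means of -0.26 to 4.49 on VCF arrays, -0.06 to 4.39 on CCF arrays, 0.29 to 3.87 on RCF arrays and -0.24 to 2.92 on Ctrl arrays. 4 of 5 adipose genes, 2 of 3 tested liver genes and 3 of 3 tested thymus genes had a higher fibre mean (medians 0.71, 1.34 and 0.61). 8 of 9 smooth muscle genes also had a higher fibre mean (median 0.25), while 0 of 12 alveolar macrophage genes (median -0.32) and 0 of 8 interferon response genes (median -0.28) did. None of these genes passed in any comparison, and their part in the levels of the 4 receptors was not tested.

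Across all detected receptors the differences from Ctrl had medians near 0. The median VCF minus Ctrl difference of the 272 probes was -0.03, against 0.01 over all tested probes. CCF minus Ctrl had a median of -0.09, against -0.01, and RCF minus Ctrl one of -0.07, against 0.01. The standard error of a single receptor probe had a median of 0.34 in VCF minus Ctrl, against 0.20 over all probes. 123 of 272 receptor differences were above 0 in VCF minus Ctrl (45.2%, against 52.3% of all probes), 110 in CCF minus Ctrl (40.4%, against 47.5%) and 100 in RCF minus Ctrl (36.8%, against 52.3%). For the fibres together 108 were (39.7%, against 50.6%). These are descriptions with no test.

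**Figure D4:**
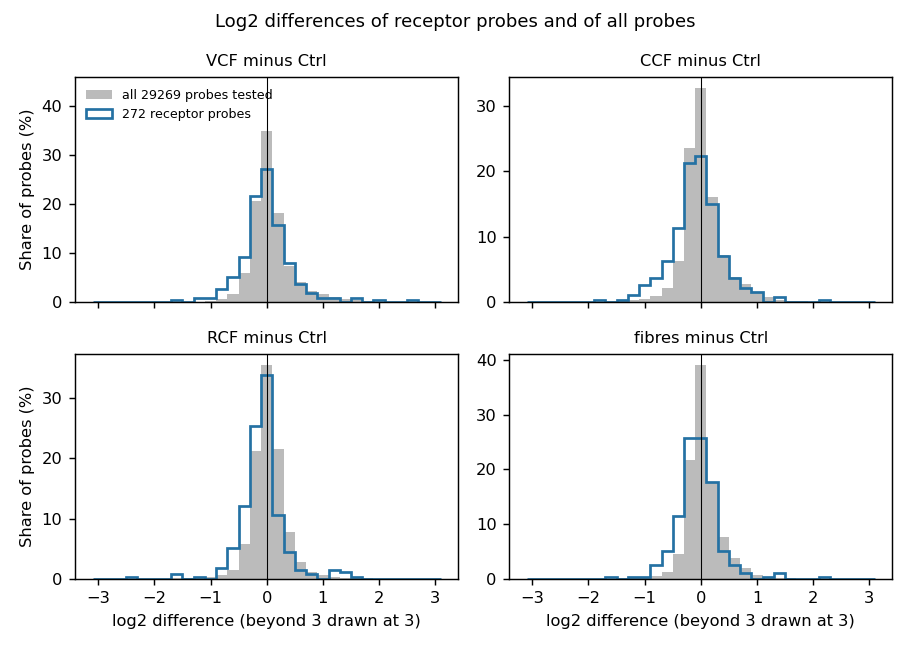
Share of probes in percent (vertical axis) by log2 difference in bins of 0.2 (horizontal axis) for each fibre group minus Ctrl and for the fibres together. Grey bars are all 29269 tested probes and the blue line the 272 receptor probes, whose medians lie between -0.09 and -0.03 and whose spread is the wider one.

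At an unadjusted p under 0.05 in limma, 10 receptor probes were higher and 2 lower in VCF than in Ctrl lungs, 3.68% and 0.735% of the 272, where 6.06% and 2.2% of all probes were. CCF minus Ctrl gave 7 higher and 8 lower (background 3.94% and 2.65%), and RCF minus Ctrl 8 higher and 2 lower (background 2.81% and 2.54%). The fibres together gave 8 higher and 1 lower (background 4.32% and 2.35%). After adjustment no receptor passed in CCF or RCF against Ctrl, and in those comparisons no probe of the array did (0.0%). Arrays did not overlap at 8 probes that were higher and 4 that were lower in VCF than in Ctrl (background 6.03% and 2.68%), and at 12 and 12 in CCF (background 4.76% and 5.02%). In RCF they numbered 8 and 3 (background 4.21% and 3.89%). The receptors' shares lay at or below the background in these counts, apart from the 8 probes lower in CCF lungs at an unadjusted p under 0.05 (2.94%) and the 8 higher in RCF lungs (2.94%), which lay just above it. Not among these counts are the 4 receptors with all fibre arrays above all Ctrl arrays (1.47%, against 0.41%). Nor are the calls of Olfr1495 in VCF minus Ctrl (0.368%, against 0.0102%) and for the fibres together (0.368%, against 0.00342%). These shares lay above the background, and the count of 4 is a description.

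After the 4 receptors described, the probes with the smallest p in each direction gave small or dim differences. Olfr1282 averaged -5.54 ± 0.25 in CCF lungs and -6.24 ± 0.26 in Ctrl lungs (SD, n = 3 each), a difference of 0.70 (SE 0.22, limma adjusted p = 0.637). Its arrays did not overlap. Without the 4 arrays high in other tissues the difference of Olfr1282 was 0.54. Olfr788 read -7.04, -6.40 and -6.51 in CCF lungs, against -5.99, -5.84 and -6.04 in Ctrl lungs. It was detected on 0 CCF arrays and on 2 Ctrl arrays, which bounds the level as at least 1.24-fold lower in CCF (limma adjusted p = 0.623). CCF replicate 1, the array left without those 4, was the lowest for Olfr788. Bounds of this kind compare the mean of the brighter group with a limit on each array of the other group. This limit was the dimmest probe signal that counted as detected there, or the probe's own level where that was higher.

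Olfr1302 was above background on all 3 Ctrl arrays and on no RCF array. It read -8.76, -6.62, -7.88 and -9.02 in RCF lungs, against -5.70, -5.24 and -6.07 in Ctrl lungs. The RCF arrays all lay below the Ctrl arrays, at least 2.13-fold lower (limma adjusted p = 0.809). On the other fibre arrays the same probe was split: it read -6.00, -6.24, -6.16 and -8.87 in VCF lungs and -5.36, -6.17 and -8.60 in CCF lungs. Olfr295 averaged -7.87 ± 0.06 in CCF lungs and -6.61 ± 0.47 in Ctrl lungs (SD, n = 3 each). It was above background on 0 CCF and on all 3 Ctrl arrays (limma adjusted p = 0.637), with no bound above 1. In VCF lungs Olfr1472 on chromosome 19 read -8.49, -7.89, -8.39 and -8.48, against -7.65, -7.08 and -6.46 in Ctrl lungs. Its arrays did not overlap, but 0 VCF arrays and 1 Ctrl array were above background, with no bound above 1 (limma adjusted p = 0.566). The other receptors named as lower in VCF than in Ctrl were above background on all arrays of both groups: Olfr570 on chromosome 7, above background on all 14 arrays, differed from Ctrl by -0.39 (SE 0.19, limma adjusted p = 0.637) and Olfr1232 by -0.77 (SE 0.31, limma adjusted p = 0.515), with overlapping arrays in both.

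3 detected receptor probes were above background on 0 Ctrl arrays, and 1 of them in a single group. Olfr237 read -7.24, -4.75, -5.20 and -6.25 in VCF lungs, of which the last 3 were above background. It read -6.88, -8.28 and -6.77 in CCF lungs, -7.48, -7.20, -6.59 and -7.23 in RCF lungs, and -7.09, -6.96 and -7.17 in Ctrl lungs, all below the detection limit. VCF replicate 1 lay among the arrays of the other groups. The probe was kept through VCF alone and had to differ. The bound was at least 1.90-fold higher in VCF than in Ctrl. Olfr576 and Olfr13 were likewise kept through fibre arrays alone. Olfr576 was detected on 3 of 4 RCF arrays, 1 VCF and 1 CCF array, at least 1.35-fold higher in RCF than in Ctrl, and Olfr13 on 2 RCF arrays and 1 CCF array.

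Between fibres no receptor passed, and neither did any other probe of the array (0.0% in each pair). CCF minus VCF gave 3 higher and 9 lower receptor probes at an unadjusted p under 0.05 (background 1.19% and 4.61%), RCF minus VCF 1 and 7 (background 1.54% and 3.75%), and RCF minus CCF 5 and 6 (background 4.58% and 3.32%). Arrays did not overlap at 1 higher and 7 lower probes in CCF minus VCF (background 1.29% and 4.0%), at 0 and 2 in RCF minus VCF (background 1.38% and 2.54%) and at 2 and 4 in RCF minus CCF (background 5.46% and 3.24%). The receptors' shares lay below the background in each of these counts. Differences above 0 numbered 127 in CCF minus VCF (46.7%, against 46.4% of all probes), 116 in RCF minus VCF (42.6%, against 46.8%) and 130 in RCF minus CCF (47.8%, against 51.2%).

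Among the fibre pairs, Olfr788 of chromosome 10 had the smallest p. Its CCF values given above lay below those of VCF lungs, which were -5.56, -6.08, -5.99 and -5.88. The bound was at least 1.31-fold lower in CCF (limma adjusted p = 0.709). Olfr1428 on chromosome 19 read -7.19, -6.00, -7.04 and -7.21 in RCF lungs, against -5.24, -4.78, -4.92 and -5.82 in VCF lungs. No RCF array reached the VCF arrays, and the difference was -1.67 (SE 0.51, limma adjusted p = 0.746), with 1 of 4 RCF arrays above background. Olfr214 read -5.91, -5.43 and -6.19 in CCF lungs, 2 of them above background, against -6.71, -6.88, -7.29 and -7.05 in VCF lungs, where no array was. It was at least 1.78-fold higher in CCF (limma adjusted p = 0.794), without overlap. Without the 4 arrays high in other tissues the differences from VCF in CCF were -1.06 for Olfr788 and 1.16 for Olfr214, and RCF minus VCF of Olfr1428 was -1.58, none passing. Olfr76, Olfr368 and Olfr684 were detected on 0 CCF arrays and on 3, 3 and 4 RCF arrays, at least 1.06-fold, 1.13-fold and 1.22-fold higher in RCF (limma adjusted p = 0.54, 0.563 and 0.563). Their RCF minus CCF differences were 0.58, 0.70 and 0.64. Without the 4 arrays high in other tissues these differences fell to 0.48, 0.13 and 0.36. In the other direction, Olfr1507 of chromosome 14 averaged -5.44 ± 0.39 in RCF lungs (n = 4) and -4.91 ± 0.11 in CCF lungs (n = 3, both SD), a difference of -0.53 (SE 0.21, limma adjusted p = 0.576). Without the same 4 arrays the difference of Olfr1507 was -0.63.

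The other trace amine receptors showed no group difference beyond the arrays' spread. Taar2 was above background on all 14 arrays. It read -3.89, -4.47, -4.99 and -4.48 in VCF lungs, -5.99, -3.82 and -4.09 in CCF lungs, -3.99, -5.02, -3.73 and -4.60 in RCF lungs, and -5.44, -4.24 and -4.57 in Ctrl lungs. The lowest arrays, CCF replicate 1 and Ctrl replicate 1, lay on the same slide as the highest, RCF replicate 3. Every group overlapped every other. Taar9 was also above background on all 14 arrays. It averaged -5.17 ± 0.23 in VCF (SD, n = 4), -5.20 ± 0.24 in CCF (n = 3), -5.36 ± 0.35 in RCF (n = 4) and -5.25 ± 0.30 in Ctrl lungs (n = 3). Taar1, the trace amine receptor that acts in the brain rather than in the olfactory epithelium, was detected on at most 1 array.

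Of 12 receptors listed for their roles outside the nose or in earlier results of these data, 4 olfactory receptors were detected. Besides Olfr1495 they were Olfr544, a receptor for azelaic acid in mouse liver and fat, Olfr1393, a regulator of glucose handling in the mouse kidney, and Olfr15, described in pancreatic islets. Olfr544 was above background on all 14 arrays and read -3.12, -3.78, -2.91 and -3.62 in VCF lungs, -3.57, -3.54 and -3.39 in CCF lungs, -3.25, -3.80, -3.45 and -3.44 in RCF lungs, and -3.47, -3.66 and -3.12 in Ctrl lungs. All groups overlapped, and in each group the array of slide 3 was the highest. The 2 probes of Olfr1393 were above background on 14 and on 9 arrays. The steadier one averaged -4.38 ± 0.35 in VCF (SD, n = 4), -4.34 ± 0.19 in CCF (n = 3), -4.48 ± 0.23 in RCF (n = 4) and -4.40 ± 0.19 in Ctrl lungs (n = 3). Olfr15, above background on 10 arrays, averaged -6.52 ± 0.58 in VCF (SD, n = 4), -6.25 ± 0.56 in CCF (n = 3), -6.29 ± 0.61 in RCF (n = 4) and -6.05 ± 0.43 in Ctrl lungs (n = 3). No probe of the 3 passed in any comparison.

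The remaining receptors of that list were dark. Olfr78, a sensor of lactate and short-chain fatty acids, Olfr558, a receptor for branched short-chain fatty acids, and Olfr2, an octanal receptor of vascular macrophages in mouse, were above background on 0 arrays. So were Olfr16, known from sperm and muscle, Olfr734, described as an asprosin receptor in mouse liver, Olfr90 and Olfr56. On these arrays a signal at 0 of 14 arrays says only that the probe did not rise above background in whole lung.

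**Figure D5:**
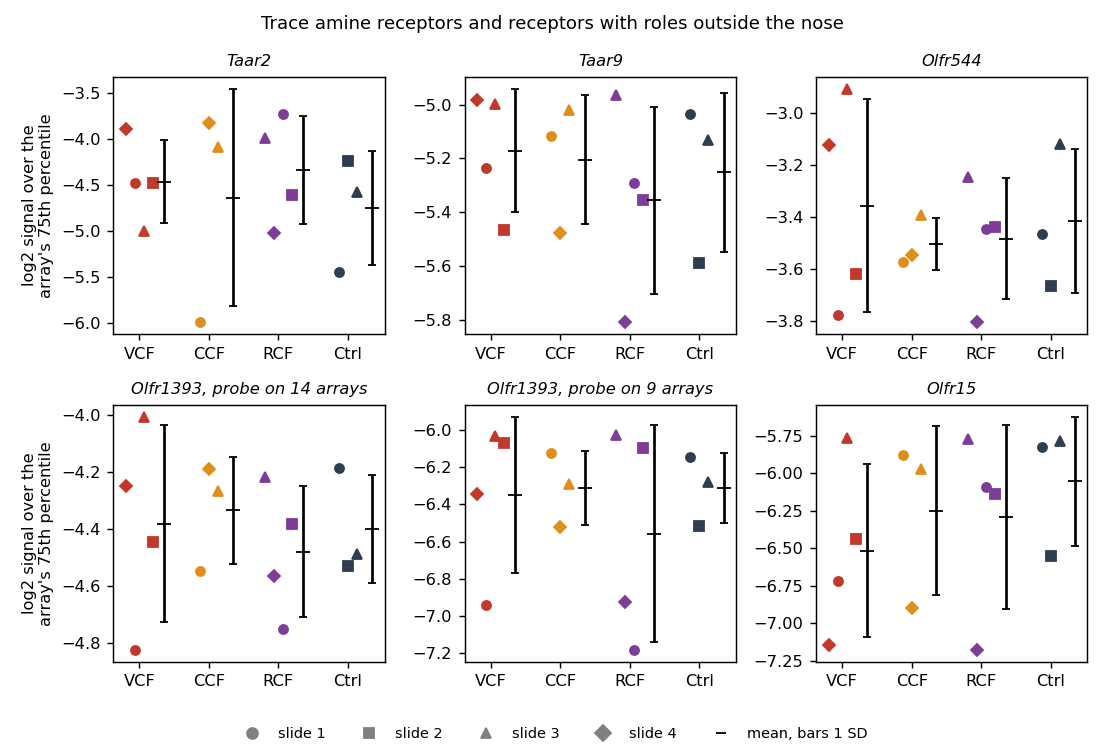
Log2 signal relative to the array's 75th percentile (vertical axis) of Taar2, Taar9, Olfr544, both probes of Olfr1393 and Olfr15 in VCF, CCF, RCF and Ctrl lungs (horizontal axis). Each point is 1 array, its symbol the slide, and the black mark the mean with 1 SD: the 4 groups overlap in every panel.

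Of the 92 probes above background on all 14 arrays, none passed an F test over the 4 groups. The smallest limma adjusted p among them was 0.652, and 0 of the 92 had an unadjusted p under 0.05. Over all 272 probes 10 had one (2254 of all 29269). None of the 272, Olfr1495 included, passed this F test after adjustment. No other probe of the array did (smallest limma adjusted p = 0.182). Olfr1065 of chromosome 2 had the smallest p of the 92. It read -4.72, -4.20, -4.79 and -4.88 in VCF lungs, -5.27, -4.88 and -4.76 in CCF lungs, -5.69, -5.39, -4.80 and -5.01 in RCF lungs, and -5.49, -5.31 and -5.05 in Ctrl lungs. The VCF arrays lay above the Ctrl arrays without overlap and overlapped both other fibre groups. RCF minus VCF was -0.57 (SE 0.21, limma adjusted p = 0.871). The always-detected Olfr870 of chromosome 9 averaged -4.17 ± 0.39 in CCF lungs (n = 3) and -4.87 ± 0.35 in VCF lungs (n = 4, both SD), a difference of 0.70 (SE 0.30, limma adjusted p = 0.838), which was 0.23 for Olfr870 without the 4 arrays high in other tissues. Olfr1362 of chromosome 13 overlapped in all groups: it read -2.90, -2.61, -2.18 and -3.60 in VCF lungs, -2.88, -2.06 and -1.18 in CCF lungs, -1.79, -2.19, -2.80 and -3.08 in RCF lungs, and -2.78, -2.77 and -1.23 in Ctrl lungs. Its highest VCF, CCF, RCF and Ctrl arrays (replicates 3, 3, 1 and 3) were again those of slide 3.

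The spread between arrays of a group grew as detection fell. The pooled within-group SD of a probe had a median of 0.37 for the 92 probes seen on all arrays, 0.48 for those seen on 10 to 13 arrays and 0.63 for those seen on 3 to 9, against 0.24 for all tested probes seen on all arrays. Slide accounted for a median of 36.2% of a receptor probe's variance and group for 13.2% (270 probes with no missing value), against 35.1% and 22.0% over all tested probes. Slide had the larger share at 75.6% of the receptor probes and at 64.3% of all.

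Receptor genes lie in clusters, and detection was spread over them. On the 2 chromosomes with the most receptor genes with probes, 68 of 232 genes were detected on chromosome 2 (29.3%) and 64 of 196 on chromosome 7 (32.7%). The shares were 40.4% on chromosome 11 (23 of 57) and 20.2% on chromosome 9 (22 of 109). A receptor gene with 0 detected neighbours, in the order of receptor genes along the chromosome, was itself detected in 26.7% of 446 cases. With 1 detected neighbour the share was 33.4% of 365, and with both 34.2% of 79. The longest run was Olfr123 to Olfr128 on chromosome 17, with 6 detected genes in a row, followed by 5 on chromosome 11 (Olfr397, Olfr398, Olfr139, Olfr399 and Olfr401).

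The genes of the chromosome 17 run, chosen for their length in a row, varied by slide more than by group. Olfr128 lay between -4.74 and -4.29 on slide 3 and between -4.71 and -4.05 on slide 4, against -5.28 to -4.82 on slide 1 and -5.53 to -5.35 on slide 2. Olfr127 did the same, with -4.16 to -3.30 on slide 3 and -3.87 to -3.36 on slide 4, against -4.64 to -4.35 on slide 1 and -4.56 to -4.27 on slide 2. For these 2 genes no array of slides 3 and 4 overlapped with those of slides 1 and 2. Olfr124 did not share this: slide 3 (-4.80 to -4.44) lay above slide 4 (-5.14 to -4.84), and slides 1 and 2 overlapped both. By group, Olfr127 averaged -3.89 ± 0.66 in VCF (SD, n = 4), -4.05 ± 0.52 in CCF (n = 3), -4.19 ± 0.25 in RCF (n = 4) and -4.18 ± 0.48 in Ctrl lungs (n = 3), all overlapping. Arrays of a slide also share their scan date. Whether they share a hybridization batch was not looked at.

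Genes of the olfactory signalling chain were detected, and genes of the olfactory neuron in part. Of 16145 named genes outside the chemoreceptor families, 87.7% were detected and 80.2% were above background on all 14 arrays. Counts near these shares say nothing particular to a list. All 12 genes of the chain with a probe were detected, 9 of them on all 14 arrays, among these Adcy3, Cnga2, Cngb1 and the chloride channel Ano2. Gnal was above background on 7 arrays and Gng13, a G protein subunit, on 13. Of 10 genes for receptor transport and receptor choice, 6 were on all 14 arrays (Reep1, Ldb1, Ebf1, Kdm1a, Atf5 and Hspa1a) and Rtp4 on 13, while Rtp1, which carries receptors to the cell surface, was above background on 0 arrays, Rtp2 on 1 and Lhx2 on 6. Of 8 olfactory sensory neuron genes with a probe, Emx2, Gap43 and Ebf2 were on all 14 arrays, the olfactory marker protein Omp on 12, S100a5 and Kirrel2 on 6, and Stoml3 and Ncam2 on 0. Pulmonary neuroendocrine cells, which carry chemoreceptors in the human airway, had 10 of 11 genes on all arrays. Of 8 genes with a probe in the list of the tuft cell, a chemosensory epithelial cell, Dclk1, Plcb2 and Tas1r3 were on all 14 arrays, Chat on 10, Avil on 5, Pou2f3 on 1, and Trpm5 and Il25 on 0. None of the genes of these 5 lists passed in any of the 7 comparisons. Mean levels of the signalling chain were -2.48 to -2.33 on VCF, -2.62 to -2.38 on CCF, -2.36 to -2.25 on RCF and -2.45 to -2.26 on Ctrl arrays. The groups overlapped except CCF and RCF. The list mean of neuroendocrine genes was -3.07 to -2.18 on VCF, -2.85 to -2.28 on CCF, -2.70 to -2.47 on RCF and -3.23 to -2.31 on Ctrl arrays. Their part in the receptor levels was not tested.

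The annotated starts of detected receptors resembled those of receptors that were not detected. 231 of the 268 detected genes had a RefSeq start window. TAATTA, which reads the same on both strands, occurred in 20.3% of these, in 18.3% of 536 windows of receptors that were not detected and in 5.31% of 27025 windows of all genes. CCCNNGGG, the letters bound by Ebf proteins, which also reads alike on both strands and shares no letters with TAATTA, occurred in 2.60%, 3.17% and 13.4%. Median GC content was 36.0%, 34.7% and 52.7%. The annotated start fell on the letters ATG in 75.3%, 71.1% and 6.75%, and such a window need not hold the promoter. A match is a description of letters and not of binding.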

How the data were processed

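RNA of 14 mouse lungs was measured on 1-colour Agilent arrays, 1 file of intensity values per array. The intensity values, background-subtracted by the scanner software, and its other columns, the detection flags, were deposited by the authors and per the file headers come from version 10.7.3.1 of Agilent Feature Extraction. The authors' deposited table is on a log2 scale, holds 27496 probes (203 of the 272 receptor probes) and was used as an alternative only. It has 0 columns of other samples.

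Spots flagged as outliers and 1639 control spots were left out, and spots of a probe were averaged, giving 41174 probes. Levels are log2 of the processed intensity minus the array's 75th percentile. The files used here hold no column of gene symbols, so probes were named through their RefSeq transcript in RefSeq's genes on GRCm38.p6 (24844 probes with 1 symbol, 16330 without), while the array's own grid rests on a different assembly. 29269 probes well above background on at least 3 of 14 arrays were tested. Two-sided tests used R 4.3.3 and limma 3.58.1, and 1 fit held every group (10 residual and 2.39 prior degrees of freedom), with Benjamini-Hochberg adjustment per comparison, threshold 0.05. The test was checked on simulated data without slide effects. In VCF minus Ctrl it found 54% of planted changes of 1 log2 unit and 77% of those of 2, and called 9 unchanged probes. Files were read with version 1.17.8 of the data.table package, and figures drawn with Python 3.11.15, pandas 2.3.3 and matplotlib 3.10.9. 2 values of detected receptors, of Olfr1459 on CCF replicate 3 and Olfr154 on RCF replicate 4, were missing and dropped in the fit. The number of arrays limits the precision. The main fit had no slide term, so its p-values measure the spread between arrays, in which animal, slide, hybridization and scan are not separated.

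The receptors and gene lists were chosen with earlier results of these data known. Named are all detected trace amine receptors, the 20 receptors with the smallest p of the F test among those detected on all arrays, the 3 of smallest p in each direction of each comparison, any that passed, and a panel of 12 genes. Not all of the genes so named are described. The longest run of neighbouring genes, Olfr13, Olfr175 and the genes without Ctrl detection were named after their values were seen. Alternatives were normexp (offset 50, on median spot intensity and its background, as mean intensity was not used here), quantile normalization, the deposited table, other filters, slide or replicate number as a block, only the groups compared, another prior, each array left out in turn, and, chosen after seeing the data, 2 sets of arrays left out together.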

Additional observations from a re-analysis of the deposited data

Results flagged for a closer look

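For the 48 named probes, the highest and lowest array of each group of 4 (VCF and RCF) was set against the others of its group with Dixon's gap criterion, and 8 of 96 group values stood apart, where chance gives about 1 in 20. Values are log2 levels, and none of these receptors passed in any comparison. Among RCF arrays, Olfr469 read -3.88 on replicate 2, above the others at -4.43 to -4.37, Olfr1383 read -3.95 on replicate 4, above -4.91 to -4.77, and Olfr1428 read -6.00 on replicate 2, above -7.21 to -7.04. Olfr1428 is 1 of 2 receptor probes whose RCF arrays all lay below the VCF arrays, and most of its range within RCF comes from replicate 2.

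Among VCF arrays, Olfr1472 read -7.89 on replicate 2, above the others at -8.49 to -8.39, although no VCF array of it was well above background. Olfr295 read -7.76 on replicate 2, below -6.96 to -6.87. Olfr1206 read -5.98 on replicate 3, above -6.46 to -6.42. Olfr1302 read -8.87 on replicate 4, below -6.24 to -6.00. Olfr1009 read -5.32 on replicate 3, above -6.09 to -5.97.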

How the results depend on the processing

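The number of receptors past the threshold moved easily. Of 1 in VCF minus Ctrl, 0 were left under normexp, quantile normalization, slide as a block, a fit restricted to the 2 groups, and without the 3 arrays of slide 4 or the 4 arrays high in other tissues. 2 passed in the deposited table and with a filter of 7 arrays. Leaving out each array gave 0 to 3. Of 1 for the fibres together, 0 were left under normexp, quantile normalization, slide as a block and without either set of arrays, 2 passed with a trended robust prior, and leaving out each array gave 0 to 2.

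Same-numbered arrays of different groups showed little shared variation (correlation of deviations -0.37 to 0.35, median 0.05, 19 pairs). Pairs on the same slide had a median of 0.12 (18 pairs) and those on different slides -0.08 (55 pairs). Values this small cannot exclude a pairing by number, and the main fit used none. With the replicate number as a block, 0 receptors passed for the fibres together (Olfr1495 2.19, limma adjusted p = 0.114), while Olfr1495 still passed in VCF minus Ctrl (2.59, limma adjusted p = 0.0376).

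Of the settings tried, normexp alone turned signs of named receptors' differences. The medians over the receptors were near 0 and changed sign more easily: leaving out each array gave -0.12 to 0.04 in VCF minus Ctrl, -0.15 to 0.0065 in RCF minus Ctrl, -0.13 to 0.05 in CCF minus VCF, -0.14 to 0.06 in RCF minus VCF and -0.09 to 0.11 in RCF minus CCF. Under normexp they became -0.64 in CCF minus Ctrl, -0.71 in CCF minus VCF and 0.66 in RCF minus CCF, where all probes had medians of -0.23, -0.27 and 0.22. On 4 arrays, among them Ctrl replicate 2 and VCF replicate 3, normexp left 0.02 to 0.43 between the 10th and 90th percentiles of the receptors' levels, against 0.61 to 0.82 on the other 10, and 2.42 to 3.30 before it. Signs turned for Olfr1472 in VCF minus Ctrl (0.082) and RCF minus VCF (-0.0039), and in CCF minus Ctrl for Olfr1097 (-0.51), Olfr1255 (-0.39), Olfr1282 (-0.50), Olfr1495 (-0.11) and Taar4 (-0.22). They also turned in CCF minus VCF for Olfr1232 (-0.40), Olfr214 (-0.60) and Olfr870 (-0.36), in RCF minus CCF for Olfr1009 (0.54), Olfr102 (0.52) and Olfr1507 (0.53), and for the fibres together for Olfr1097 (-0.014). The cause was not tested.

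Detected genes numbered 159 with a minimum of 10 arrays, 91 with 14, and 595 with the laxer flag for positive and significant signal. The planned count from gene symbols in the files could not be run. Near background, signal limits what these arrays can show.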
